A study of Mus musculus with 8 samples.

Results

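Translation initiation factor genes were followed in banded mouse ventricles as the genes whose symbol begins with Eif and a number from 1 to 6, and 47 of the 18194 genes with a usable probe set were of this kind. A probe set was usable when the platform annotation gave it exactly 1 gene symbol, and where a gene had several, the one with the highest mean of the 8 arrays stood for the gene. The samples were ventricles of male FVB mice aged 8 to 12 weeks, all taken 1 week after ascending aortic banding, in which the aorta is narrowed close to the heart so that the ventricle pumps against a higher pressure. In 4 mice (TG) a CHF1/Hey2 transgene was expressed in heart muscle from the mlc2v promoter, and 4 mice were wild type (WT). Hey2 represses transcription and belongs to the hairy-related factors. Each mouse gave 1 Affymetrix array. Every heart was banded, those of the WT mice included, so the values say nothing of banding itself, and the sources used here do not say how many founder lines the TG mice came from.

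Initiation is the step at which the small ribosomal subunit, carrying the initiator tRNA, is brought to the start codon of an mRNA. eIF2 carries the initiator tRNA as a complex with GTP, eIF2B recharges eIF2 with GTP, eIF3 is the large scaffold on the small subunit, and the eIF4 factors bind the cap of the mRNA and unwind its leader. Cardiac hypertrophy depends on protein synthesis, and eIF2B and the eIF4E-binding proteins are among the points at which growth signals act on it in heart muscle.

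The deposited values are on the log2 scale, and every value below is a log2 value or a difference of log2 values, TG minus WT. Probe sets differ in how strongly they bind, so values were compared between arrays and not between genes, and the mean level served only to choose probe sets and the members described. A gene entered the test when 4 or more of the 8 arrays, of either group, exceeded 5, and 45 of the 47 genes did, each in at least 7 arrays. Eif4a3, an RNA helicase of the exon junction complex, and Eif5a2, a relative of eIF5A, stayed below that level in every array, at 2.10 to 2.87 and at 2.75 to 3.39, and were not tested. The fit used limma over all 9605 genes above the filter, with Benjamini-Hochberg adjustment over all of them.

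The 8 arrays did not stand equally close together. Over the 9605 genes, TG replicate 2 correlated with the other 7 arrays at 0.788 to 0.840, TG replicate 3 with the remaining 6 at 0.935 to 0.964, and those 6 with each other at 0.977 to 0.992 (correlations across genes, which are not independent replicates). Differences are therefore given with and without TG replicate 2. The only Hey2 probe set gave 5.87, 5.70, 6.26 and 6.02 in the TG arrays and 5.89, 5.96, 5.68 and 6.76 in the WT arrays, with no clear excess in the TG arrays, and whether it reads the transgene is not known. The groups are accordingly the arrays labelled TG and WT. The control probe sets for the 2 ends of beta-actin differed by 0.62 to 1.13 in the TG arrays and 0.78 to 1.21 in the WT arrays, with TG replicate 2 lowest, and those of Gapdh by -0.27 to -0.19 in the TG and -0.28 to -0.11 in the WT arrays. Markers of heart muscle were all above the filter (7 of 7), with a summed level (log2 of the sum of the linear values) between 17.76, in replicate 2, and 18.13 in the TG arrays and between 18.03 and 18.09 in the WT arrays. The summed fibroblast markers (6 of 6) lay at 14.58 to 16.37 in the TG and 16.11 to 16.40 in the WT arrays, with TG replicate 3 lowest. The macrophage markers (6 of 6) lay at 11.98 to 14.12 in the TG and 12.78 to 13.39 in the WT arrays, with TG replicate 2 highest and TG replicate 3 lowest. Endothelial (5 of 5) and smooth muscle markers (4 of 4) reached 12.37 and 14.09 in TG replicate 2, above the highest WT values of 11.93 and 13.21. The atrial markers (3 of 3) stood at 11.82, 12.80, 12.50 and 12.65 in the TG arrays and 12.26, 11.48, 11.46 and 11.82 in the WT arrays, so that TG replicates 2, 3 and 4 lay above every WT array. Of the lymphocyte markers with a probe set, 0 of 4 were above the filter, and of the erythroid ones 1 of 2. The part that these levels had in the results below was not tested, and in ventricle as a whole fewer cells of a type and less RNA per cell cannot be told apart.

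No initiation factor gene passed the test between TG and WT ventricles. Of 45 tested, 0 were higher and 0 lower (limma, adjusted p between 0.813 and 0.995), where 0 of all 9605 genes were called (0.0%). An unadjusted limma p under 0.05 was likewise found for 0 of 45, against 154 of all genes (1.6%; 1.23% higher and 0.375% lower). By an unequal-variance test gene by gene, 1 member, Eif2b3, had an unadjusted p under 0.05, against 1.5% of all genes. The TG and WT arrays overlapped for all 45 members, where 238 of all genes (2.48%; 2.0% higher and 0.479% lower) did not overlap. By mean, 27 members were higher and 18 lower, with a median difference of 0.085, beside 0.061 for all genes tested, of which 57.0% were higher. Without TG replicate 2 these were 26 higher and 19 lower with a median of 0.027, beside 0.026 for all genes, of which 55.9% were higher. The median 95% confidence interval of a member reached 0.56 to either side, and 0.32 without TG replicate 2.

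**Figure D1:**
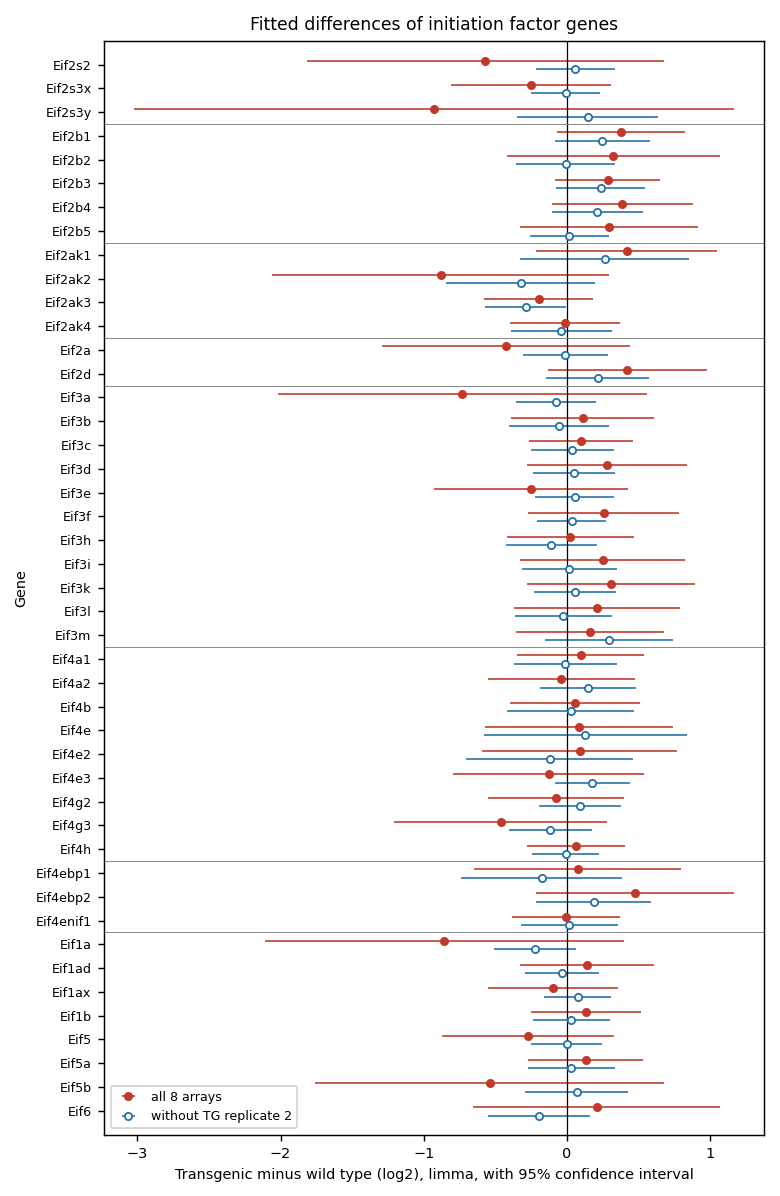
Fitted difference, TG minus WT on the log2 scale (x axis), of each of the 45 tested initiation factor genes (y axis, grouped by complex), with its 95% limma confidence interval. Filled points use all 8 arrays and open points leave out TG replicate 2. With all arrays every interval includes 0, and without TG replicate 2 only that of Eif2ak3 does not.

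The widest departures from the WT mean were those of TG replicate 2, where the complexes stood on different sides of it. There, 6 of 45 members lay over 1 log2 unit above the WT mean (17.8% of all genes did) and 11 lay over 1 unit below it (20.5%). In all, 24 of 45 stood above the other 7 arrays and 15 below them, against 46.8% and 31.0% of all genes (77.8% together), so the members as a whole were near the background. By complex, the median deviation from the WT mean in this array was -2.46 for the eIF2 subunits, 0.91 for eIF2B, 0.61 for eIF3, -0.046 for the eIF4 factors and 0.83 for the eIF4E-binding proteins, beside 0.29 for all genes. In TG replicates 1, 3 and 4, 0 of 45 members lay over 1 unit from the WT mean in either direction. Of all genes, 0.448%, 2.47% and 0.333% lay that far above it in these arrays and 0.489%, 6.25% and 0.26% that far below. The medians of all members were 0.00471, -0.011 and 0.11.

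**Figure D2:**
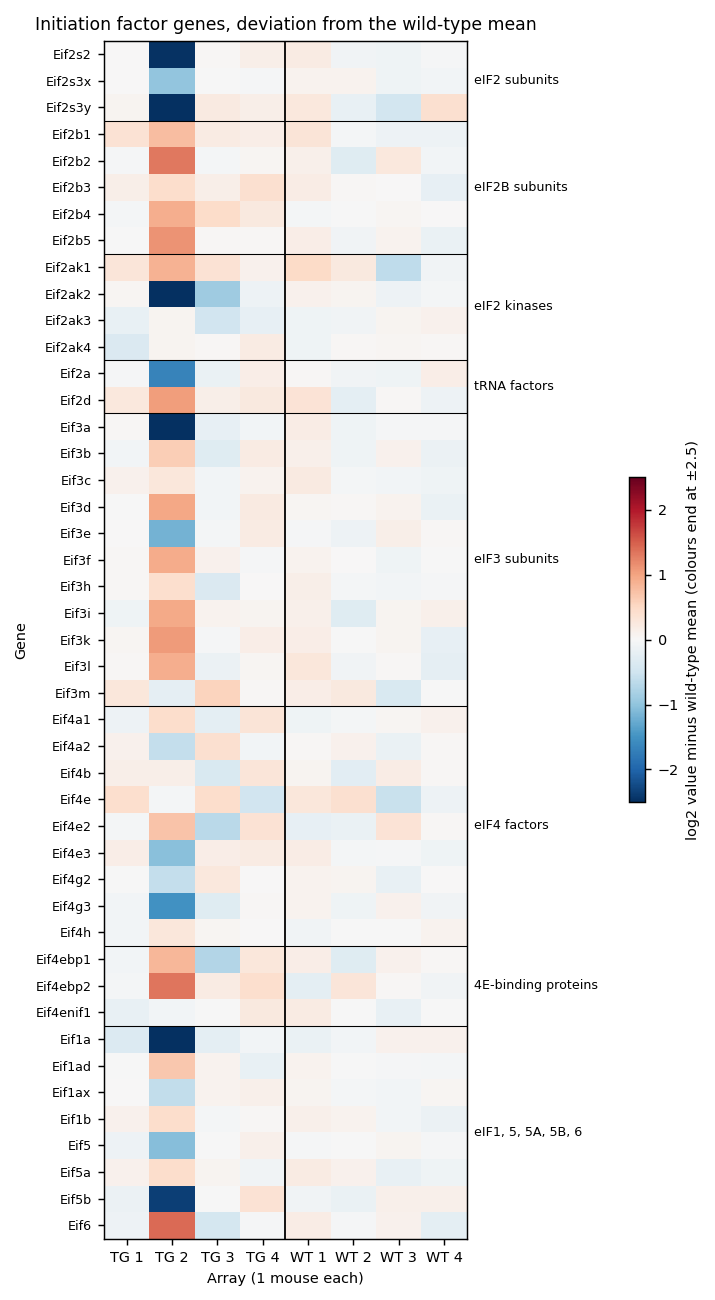
Deviation of each of the 45 tested initiation factor genes (rows, grouped by complex) from its WT mean, in log2 units, in the 4 TG and 4 WT arrays (columns). TG replicate 2 holds nearly all strong colours, blue for Eif2s2, Eif2s3y, Eif3a, Eif1a, Eif5b and Eif2ak2 and red for Eif2b2, Eif2b5, Eif4ebp2 and Eif6.

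The eIF2 subunits measured were those of the beta and gamma chains, and all 3 had a lower mean in the TG arrays through TG replicate 2 (median -0.57; 0.059 without it). Eif2s2, the beta subunit, gave 12.21, 9.73, 12.21 and 12.34 in the TG arrays and 12.40, 12.11, 12.09 and 12.17 in the WT arrays, each listed in the order of replicates 1 to 4, as are all values below. Eif2s3x, the X-linked gamma subunit, gave 10.31, 9.31, 10.28 and 10.26 in the TG arrays and 10.38, 10.38, 10.18 and 10.23 in the WT arrays. Eif2s3y, the Y-linked copy of the same subunit, gave 9.66, 5.46, 9.82 and 9.75 in the TG arrays and 9.85, 9.42, 9.13 and 9.99 in the WT arrays. In each gene TG replicate 2 was the lowest of the 8 arrays and the other 3 TG values lay within the WT range. The differences were -0.57 (95% confidence interval -1.82 to 0.68), -0.25 (-0.81 to 0.31) and -0.93 (-3.02 to 1.17), and without that array 0.059, -0.00836 and 0.14. In that array Eif2s3y stood -4.14 and Eif2s3x -0.98 from its WT mean. The kept Eif2s3x probe set carries a suffix for probes shared with other transcripts. Its other probe sets above the filter stood at -1.19 and -0.47 there, with group differences of -0.35 and -0.0082. The alpha subunit gene, Eif2s1, was not analysed here. Kdm5d and Uty, also on the Y chromosome, stood at 3.67 and 3.34 in TG replicate 2 and at no less than 5.94 and 5.96 in the other 7 arrays. Xist, which marks cells with 2 X chromosomes, stayed below the filter in all 8 arrays, between 2.63 and 2.85. All 5 Eif2s2 probe sets above the filter were lower in that array, at -2.53 to -1.79 from their WT means.

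**Figure D3:**
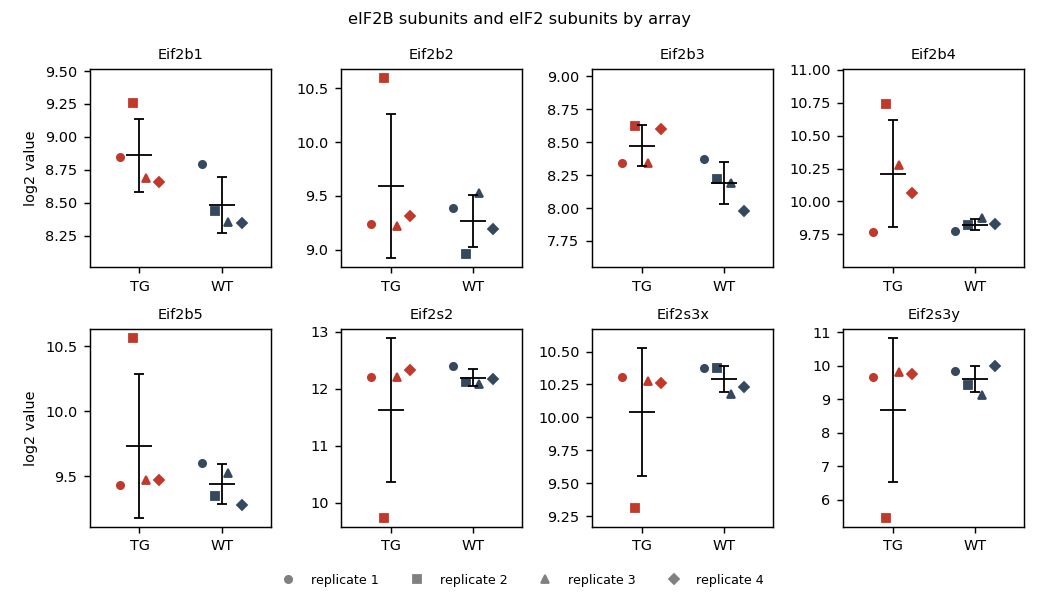
Log2 values (y axis) of the 5 eIF2B and 3 eIF2 subunit genes by array, TG left and WT right in each panel. Symbols mark the replicate number, and the bar and whiskers are the mean and SD (n = 4). The square of TG replicate 2 is the highest value of each eIF2B panel and the lowest of each eIF2 panel.

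All 5 eIF2B subunit genes were higher by mean in the TG arrays (median 0.33, range 0.28 to 0.39; all genes 0.061), and none passed. Eif2b1, the alpha subunit that binds phosphorylated eIF2, gave 8.85, 9.26, 8.69 and 8.65 in the TG arrays and 8.80, 8.44, 8.35 and 8.35 in the WT arrays. Its TG values all lay above the WT mean, but WT replicate 1 lay above TG replicates 3 and 4 (difference 0.38, SE 0.197; exact two-sided permutation p = 0.0857, where 0.0286 is the smallest possible; limma adjusted p = 0.813). Eif2b4, the delta subunit, gave 9.77, 10.74, 10.27 and 10.06 in the TG arrays and 9.77, 9.82, 9.88 and 9.83 in the WT arrays, and TG replicates 2, 3 and 4 lay above all WT values while replicate 1 did not (0.39, SE 0.216; permutation p = 0.143). Eif2b3, the gamma subunit, had means of 8.47 ± 0.16 in the TG and 8.19 ± 0.16 in the WT arrays (SD, n = 4 each), and its lowest TG values, 8.34 in replicates 1 and 3, lay just under WT replicate 1 at 8.37 (0.28, SE 0.162; permutation p = 0.0857). These 3 genes kept differences of 0.25, 0.21 and 0.24 without TG replicate 2, and of 0.27, 0.093 and 0.28 without TG replicates 2 and 3. Eif2b5, the catalytic epsilon subunit, gave 9.43, 10.56, 9.47 and 9.47 in the TG arrays and 9.60, 9.35, 9.53 and 9.28 in the WT arrays. Eif2b2, the beta subunit, stood at 10.59 in TG replicate 2 and between 9.22 and 9.32 in the other TG arrays, against 8.96 to 9.52 in the WT arrays. For both, 1 array made the difference: without TG replicate 2, Eif2b5 differed by 0.018 in place of 0.29, and Eif2b2 by -0.00845 in place of 0.33. The kept Eif2b2 probe set carries a suffix for probes shared with other transcripts, and its other 2 probe sets above the filter gave nearly the same difference, the 3 lying between 0.33 and 0.36. The median of the complex without TG replicate 2 was 0.21, with 4 of 5 subunits higher, and the medians of its members were -0.00678, 0.15 and 0.17 from the WT mean in TG replicates 1, 3 and 4, against 0.17, -0.046, 0.052 and -0.14 in WT replicates 1 to 4, so that WT replicate 1 stood about as high as TG replicates 3 and 4.

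The kinases that phosphorylate eIF2 did not share a direction, with 1 of 4 higher by mean (median -0.11). Eif2ak1, the heme-regulated kinase HRI, gave 7.76, 8.33, 7.82 and 7.56 in the TG arrays and 7.92, 7.70, 6.82 and 7.36 in the WT arrays. WT replicate 3 was its lowest value, and without that array the difference was 0.21 in place of 0.42. Eif2ak2, the kinase PKR that responds to double-stranded RNA, gave 7.14, 4.53, 6.20 and 6.96 in the TG arrays and 7.20, 7.16, 6.97 and 7.04 in the WT arrays. It was lowest in TG replicates 2 and 3 and within or close to the WT range in the other 2 TG arrays (-0.88, 95% confidence interval -2.06 to 0.30; -0.32 without TG replicate 2 and -0.038 without both). Eif2ak3, the endoplasmic reticulum kinase PERK, was 6.66, 6.38 and 6.64 in TG replicates 1, 3 and 4, all under the lowest WT value of 6.74, while TG replicate 2 stood at 6.92. With all arrays it differed by -0.20, and without TG replicate 2 by -0.29 with an unadjusted limma p of 0.0481 and an adjusted p of 0.945. By kept probe sets, Eif2ak3 was the only member whose groups were apart and the only one under an unadjusted 0.05 in that fit. Of all genes, 0.999% lay apart there on the lower side and 3.08% on the higher side, and 2.42% had such a p (1.67% higher and 0.75% lower). In another probe set above the filter of Eif1ax and of Eif4g2, TG replicates 1, 3 and 4 lay above every WT array. These probe sets differed by 0.47 and 0.23 without TG replicate 2, and by -0.34 and -0.14 with all arrays. Eif2ak4, the amino acid sensor GCN2, lay between 5.01 and 5.57 in the TG arrays and 5.25 and 5.41 in the WT arrays, close to the filter level, and differed by -0.014.

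The 2 factors that can bring initiator tRNA without eIF2 stood on opposite sides of the other arrays in TG replicate 2. Eif2d gave 9.73, 10.51, 9.60 and 9.70 in the TG arrays and 9.80, 9.21, 9.49 and 9.33 in the WT arrays, and TG replicate 2 was the highest. Eif2a gave 9.05, 7.41, 8.92 and 9.24 in the TG arrays and 9.11, 8.99, 8.97 and 9.25 in the WT arrays, and TG replicate 2 was the lowest. Eif2d differed by 0.42 (SE 0.244; permutation p = 0.143) and lay above its WT mean in 4 of 4 TG arrays, with 0.22 left without TG replicate 2. This was so in the kept Eif2d probe set only. Its other probe sets above the filter had TG replicate 1 at -0.013 and -0.0018 from the WT mean. Without TG replicate 2 they differed by -0.0020 and 0.013. For Eif2a the difference of -0.43 became -0.011 without that array.

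The eIF3 genes were split within their own complex in TG replicate 2. Of 11 subunits tested, 9 were higher by mean and 2 lower (median 0.16; 0.034 without TG replicate 2, with 7 higher and 4 lower), and none passed. In TG replicate 2, Eif3b, Eif3c, Eif3d, Eif3f, Eif3h, Eif3i, Eif3k and Eif3l stood above the other 7 arrays, Eif3a and Eif3e stood below them, and Eif3m lay among them. Eif3g and Eif3j were not analysed here. Eif3a, the scaffold subunit that binds mRNA and ribosome, gave 12.80, 10.08, 12.56 and 12.71 in the TG arrays and 12.95, 12.66, 12.74 and 12.73 in the WT arrays. Eif3e gave 12.27, 11.09, 12.23 and 12.48 in the TG arrays and 12.23, 12.14, 12.41 and 12.30 in the WT arrays. Eif3k, a small peripheral subunit, gave 10.66, 11.67, 10.58 and 10.78 in the TG arrays and 10.77, 10.60, 10.68 and 10.41 in the WT arrays. TG replicates 1, 3 and 4 lay close to the WT arrays in all 3 genes. Without TG replicate 2 the 8 subunits that were highest in it differed by -0.11 (Eif3h) to 0.058 (Eif3k), Eif3e by 0.056, and Eif3a by -0.078 (95% confidence interval -0.36 to 0.20). Eif3h, which gave 12.71, 13.10, 12.31 and 12.70 in the TG arrays and 12.84, 12.63, 12.60 and 12.65 in the WT arrays, was lowest in TG replicate 3. Eif3m, the subunit with the largest difference once TG replicate 2 was left out (0.29; 0.16 with it), stood at 10.47, 9.96, 10.75 and 10.22 in the TG arrays and 10.35, 10.43, 9.80 and 10.17 in the WT arrays, and without WT replicate 3 its difference was 0.032, and without TG replicate 3 it was 0.028. All 4 probe sets of Eif3a above the filter were lower in TG replicate 2, at -4.66 to -2.39 from their WT means, and so were all 3 of Eif3e, at -1.31 to -1.08.

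The start regions of some eIF3 genes are shown because the transgene encodes a DNA-binding repressor. The genes were picked by their values in TG replicate 2 alone, and any link of those values to the transgene was not tested. Of the 47 genes, 38 had a start region in the RefSeq table of build GRCm38.p6, reaching from 250 bases before to 50 bases after each start, and each was searched on both strands for CACGTG, an E-box, and CACGCG, both sequences that hairy-related factors are known to bind, for CCGGAAGT, bound by ETS factors, and for TGACGTCA, the cAMP response element. CACGTG stood in the start regions of 9 of the 38 genes (23.7%), against 8.09% of all genes in the table and 12.3% of the genes tested here. CACGCG stood in 5 (13.2%), against 10.5% and 20.8%, CCGGAAGT in 8 (21.1%), against 4.31% and 9.55%, and TGACGTCA in 0, against 2.03% and 3.57%. The counts for CACGTG and CCGGAAGT each include Eif5a2, which was not tested, so the shares of tested genes beside them cover an unlike set. The 4 motifs do not overlap each other in the stretches shown, a match is not evidence of binding, and genes with several starts count once if any start region held the motif. Below are the 120 bases before the start of 4 subunit genes that stood 0.91 to 1.06 above their WT means in TG replicate 2 and of Eif3a, which stood at -2.69 from its own, each 5′ to 3′ on the strand of its gene, with matches in capitals. Eif3i, at 0.94, also stood in that range and had no entry in the table.
Eif3d, chr15:77970825-77970944, minus strand: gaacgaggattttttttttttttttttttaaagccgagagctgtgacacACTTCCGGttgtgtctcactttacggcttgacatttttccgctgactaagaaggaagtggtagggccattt
Eif3f, chr7:108934295-108934414, plus strand: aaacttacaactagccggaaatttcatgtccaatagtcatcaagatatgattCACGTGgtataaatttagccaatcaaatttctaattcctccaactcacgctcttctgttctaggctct
Eif3k, chr7:28981889-28982008, minus strand: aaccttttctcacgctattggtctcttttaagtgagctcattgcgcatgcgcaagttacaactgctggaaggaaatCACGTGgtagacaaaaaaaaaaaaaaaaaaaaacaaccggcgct
Eif3l, chr15:79075103-79075222, plus strand: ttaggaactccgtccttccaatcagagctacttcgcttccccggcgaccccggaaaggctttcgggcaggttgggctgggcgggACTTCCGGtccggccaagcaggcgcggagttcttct
Eif3a, chr19:60790694-60790813, minus strand: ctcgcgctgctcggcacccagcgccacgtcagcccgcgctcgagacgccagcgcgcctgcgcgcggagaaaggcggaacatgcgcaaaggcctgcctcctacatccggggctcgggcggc
Eif3f and Eif3k each hold a CACGTG here, Eif3d and Eif3l each hold CCGGAAGT on the opposite strand, and the stretch of Eif3a holds none of the 4 motifs. The CACGTG of Eif3a starts 23 bases into the transcript, outside the stretch shown. No match to the 4 motifs was found for Eif3b, Eif3c and Eif3h, also highest in TG replicate 2, or for Eif3e, lowest there. Not every member had a start region to search. Whether the motifs go with the direction in that array was not tested.

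Of the eIF4 factors, 5 of 9 were higher by mean and none passed, with a median of 0.057, and 0.027 without TG replicate 2. Eif4e, the cap-binding protein, gave 11.96, 11.49, 11.97 and 11.06 in the TG arrays and 11.81, 11.94, 10.98 and 11.41 in the WT arrays, with SDs of 0.43 in TG and 0.43 in WT and with TG replicate 4 and WT replicate 3 lowest in their groups (0.085, 95% confidence interval -0.57 to 0.74). Eif4a1, the main RNA helicase of the complex, gave 12.33, 12.88, 12.21 and 12.76 in the TG arrays and 12.33, 12.40, 12.50 and 12.56 in the WT arrays. Its close relative Eif4a2 gave 12.64, 11.95, 12.95 and 12.46 in the TG arrays and 12.56, 12.65, 12.38 and 12.57 in the WT arrays. TG replicate 2 was the highest of the 8 arrays for Eif4a1 and the lowest for Eif4a2, and the differences were 0.098 and -0.039. Eif4g2, a scaffold that lacks the eIF4E-binding part, gave 13.53, 12.94, 13.80 and 13.55 in the TG arrays and 13.63, 13.61, 13.36 and 13.55 in the WT arrays. Eif4g3, a scaffold of the cap complex, gave 9.66, 8.21, 9.41 and 9.74 in the TG arrays and 9.80, 9.62, 9.82 and 9.63 in the WT arrays. Both were lowest in TG replicate 2, and without it Eif4g3 differed by -0.12 in place of -0.46. Eif4e3, a cap-binding relative, stood at 9.88 there and between 11.09 and 11.12 in the other TG arrays, against 10.81 to 11.11 in the WT arrays. Eif4e2, a cap-binding protein that represses translation, was 9.32 in TG replicate 2 and 7.92 in TG replicate 3, on either side of its WT range of 8.40 to 8.94. Its probe sets did not share this pattern. The others above the filter stood at 0.59, -0.66 and -0.35 from the WT mean in TG replicate 2. In TG replicate 3 they stood at -0.27, 0.42 and 0.17. The helicase cofactors Eif4b and Eif4h differed by 0.057 and 0.066.

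Of the proteins that bind eIF4E and hold it back, Eif4ebp2 had the largest difference of all 45 members on the higher side. It gave 7.86, 9.26, 8.11 and 8.33 in the TG arrays and 7.67, 8.22, 7.94 and 7.82 in the WT arrays, and TG replicates 2 and 4 lay above all WT values (0.47, SE 0.303; permutation p = 0.171; 0.19 without TG replicate 2). In the other Eif4ebp2 probe sets above the filter, TG replicate 4 lay within the WT range, at -0.35 and 0.23 from the WT mean. TG replicate 2 stood above all WT values in the former, at 8.86, but not in the latter, at 7.53. They differed by 0.42 and 0.28, and without TG replicate 2 by 0.13 and 0.28. Eif4ebp1, the best known target of mTOR among these proteins, gave 11.27, 12.17, 10.62 and 11.62 in the TG arrays and 11.51, 11.04, 11.46 and 11.37 in the WT arrays. Its highest and lowest values of all 8 arrays were TG replicates 2 and 3, and the group means were 11.42 ± 0.65 in the TG and 11.35 ± 0.21 in the WT arrays (SD, n = 4 each). Eif4enif1, the shuttling protein 4E-T, differed by -0.00405, with TG values of 8.75 to 9.16 and WT values of 8.74 to 9.14.

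**Figure D4:**
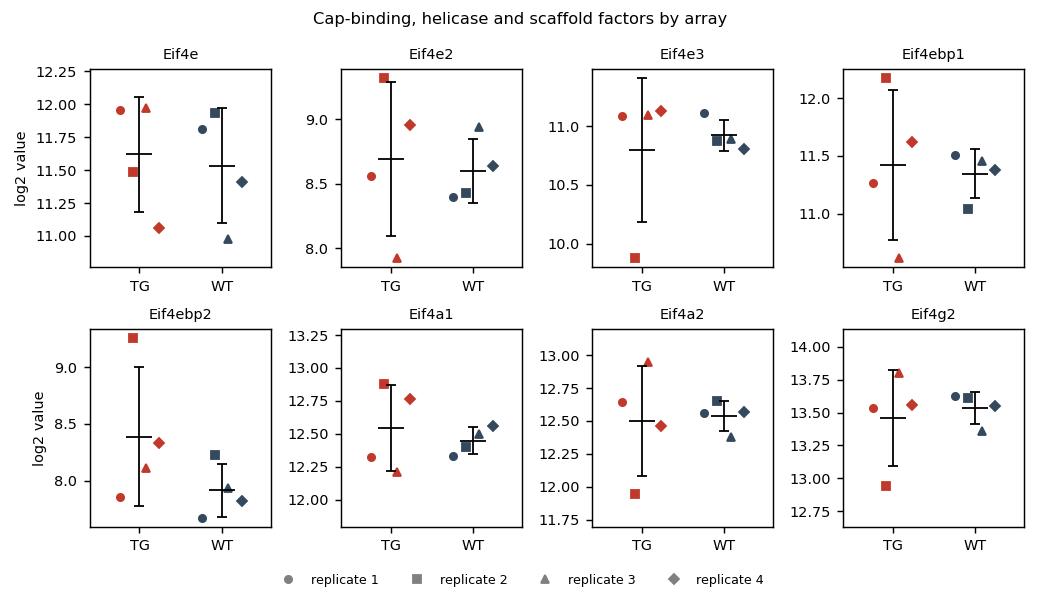
Log2 values (y axis) of 3 cap-binding genes, 2 genes of eIF4E-binding proteins, 2 helicase genes and the scaffold gene Eif4g2 by array, TG left and WT right in each panel, with replicate number by symbol and mean and SD as bar and whiskers (n = 4). TG replicate 2 (square) is the highest value for Eif4ebp1, Eif4ebp2, Eif4e2 and Eif4a1 and the lowest for Eif4e3, Eif4a2 and Eif4g2. The Eif4e probe set shown spreads alike in both groups. In its other probe sets above the filter, TG replicate 2 stood at -0.99 and -3.85 from the WT mean.

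Among the factors of scanning, subunit joining and later steps, 4 of 8 tested were higher by mean (median 0.017). Eif1a, which works with eIF1 in start codon selection, gave 8.66, 6.26, 8.76 and 8.94 in the TG arrays and 8.86, 8.95, 9.12 and 9.12 in the WT arrays. All 4 TG values lay below the WT mean, and TG replicate 4 lay within the WT range (-0.86, 95% confidence interval -2.11 to 0.40; permutation p = 0.0571; -0.22 without TG replicate 2). In the other Eif1a probe set above the filter, TG replicate 4 stood at 7.97, above every WT array and 0.73 above the WT mean. Without TG replicate 2 that probe set differed by -0.033. The X-linked copy of the gene, Eif1ax, differed by -0.098, with TG replicate 2 again lowest at 10.40. Eif5, which triggers GTP hydrolysis on eIF2, gave 12.18, 11.23, 12.29 and 12.43 in the TG arrays and 12.28, 12.29, 12.38 and 12.27 in the WT arrays. TG replicate 2 was again the lowest. Eif5b, which joins the ribosomal subunits, stood at 8.32 in TG replicate 2 and at 10.51 or more in every other array. All 5 Eif5 probe sets above the filter were lower in that array, at -2.39 to -0.95 from their WT means, and so were all 3 of Eif5b. Eif5a, the hypusine-bearing factor of elongation and termination, gave 14.11, 14.44, 14.07 and 13.92 in the TG arrays and 14.20, 14.10, 13.82 and 13.89 in the WT arrays, a difference of 0.13 (0.031 without TG replicate 2). Eif6, which keeps the large subunit from joining too early, gave 8.62, 10.16, 8.31 and 8.70 in the TG arrays and 8.92, 8.70, 8.84 and 8.48 in the WT arrays, and its difference of 0.21 became -0.20 without TG replicate 2. Eif1b and Eif1ad differed by 0.13 and 0.14, each with TG replicate 2 highest.

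Probe sets of the same gene mostly had the same sign while TG replicate 2 was included. Of 26 members with several probe sets above the filter, 23 had probe sets of 1 sign in TG replicate 2, and the exceptions were Eif1ad, Eif4e2 and Eif4ebp1. Likewise 23 of 26 had 1 sign in the group difference, with Eif4e, Eif4e2 and Eif4ebp1 as exceptions. For Eif4e the 3 probe sets lay between -3.85 and -0.046 from the WT mean in TG replicate 2, so that the kept one, the strongest, stood closest to it. Probe sets of a gene read the same RNA and are not replicates of the comparison.

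Other genes of the pathway, from 4 lists, also held none that passed, and 0 of 10, 0 of 15, 0 of 13 and 0 of 14 had an unadjusted limma p under 0.05. Elongation and termination factors were higher by mean in 7 of 10 (median 0.085, and 0.088 without TG replicate 2). Eef1d, an exchange factor of elongation, differed by 0.23, Eef1e1 by 0.31 and Eef1a2, the elongation factor of adult muscle, by 0.15. Eef2k, the kinase that inhibits eEF2, differed by 0.37. Without TG replicate 2 these differences were 0.10, 0.25, 0.088 and 0.022 in the same order. Partners of initiation were lower by mean in 12 of 15 (median -0.25), and without TG replicate 2 they were higher in 10 of 15 (median 0.077). Pdcd4, an inhibitor of eIF4A, differed by -1.01 and stood at 5.21 in TG replicate 2, Pabpc1, the poly(A)-binding protein, by -0.38, Ddx3x, a helicase, by -0.48, and Bzw1 by -0.41, or by -0.27, -0.21, -0.11 and -0.24 without it and by 0.12, 0.029, -0.079 and -0.088 without TG replicates 2 and 3. Genes of mTOR and MNK control were higher in 9 of 13 (median 0.18, and 0.099 without TG replicate 2). Mlst8 differed by 0.40, Tsc2, which restrains mTOR, by 0.40, Akt1s1 by 0.47 and Rptor by 0.30. Without TG replicate 2 they differed by 0.21, 0.17, 0.16 and 0.11 in the same order. Target genes of the integrated stress response, which phosphorylation of eIF2 sets off, were higher in 8 of 14 (median 0.021), and without TG replicate 2 they were lower in 11 of 14 (median -0.14). In TG replicate 3 their median stood at -0.46 from the WT mean. There 5 of 14 lay over 1 unit below it, against 6.25% of all genes. Without TG replicates 2 and 3, 7 of 14 were higher (median 0.00420). Single arrays of both groups also leaned to 1 side. In TG replicate 1, 13 of 14 were lower (median -0.17), and in WT replicate 1, 12 of 14 (-0.25). In TG replicate 4, 11 of 14 were higher (0.19), and in WT replicate 3, 13 of 14 (0.33). Atf3 differed by -0.58 with all arrays, -0.99 without TG replicate 2 and -0.73 without TG replicates 2 and 3. Nupr1 differed by -0.49, -0.62 and 0.022 in the same order, with 7.69 in TG replicate 3 and 9.50 to 9.70 in the other TG arrays, against 9.06 to 10.10 in the WT arrays. Cebpg differed by -0.65, -0.12 and -0.073, and Shmt2 by 0.34, 0.12 and 0.046.

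The WT arrays showed how much the kept probe sets of these genes vary between banded hearts. The SD of a member over the 4 WT arrays was 0.14 at the median and 0.042 to 0.48 in range, against a median of 0.19 for all genes tested. Eif2ak1, Eif4e and Eif2s3y varied most, with SDs of 0.48, 0.43 and 0.40, and WT replicate 3 held the lowest WT value of all 3. Other Eif4e probe sets above the filter spread less, at 9.53 to 9.71 and 6.56 to 6.84 in the WT arrays. WT replicate 3 was lowest in these too, but in another Eif2ak1 probe set it was the highest WT array, at 7.68. Eif2b4 and Eif5 varied least, at 0.042 and 0.050. Over the 4 TG arrays the median SD of a member was 0.45, beside 0.49 for all genes.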

How the data were processed

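Ventricle RNA of 8 mice was hybridised to 8 arrays, 4 TG and 4 WT, grouped by sample title. The authors deposited 1 table of log2 values for 45101 probe sets, between 0.837 and 16.11, made with GCRMA per the submitters' processing notes; neither its version nor any filter is stated there. GCRMA corrects background from probe sequence and normalizes across arrays, so that differences are relative to the other arrays, and 4 arrays a group set the precision. The deposited table gives no read depth, and no scan date or batch was available to test.

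Through the platform annotation, 34958 probe sets had 1 gene symbol, 932 several and 9211 none. Per gene the single-symbol probe set with the highest mean over all arrays was kept (18194 genes), and genes above 5 in at least 4 of 8 arrays were fitted with limma 3.58.1 in R 4.3.3 (9605 genes, TG minus WT, empirical Bayes, Benjamini-Hochberg threshold 0.05). Permutation tests over the 70 splits of 8 arrays were exact and two-sided. The code was tested on simulated data. Marker levels are log2 of the summed linear values.

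Members and lists were chosen with earlier results of these data known, so no test over a list is given. Values in every array are given for a fixed panel of members, the 2 members with the smallest p and the member with the highest mean in each complex, the 5 largest differences in each direction, and members whose groups do not overlap; of the other pathway lists, up to 4 genes with the smallest p are named. Eif2b2, Eif2b3, Eif2ak3, Eif2ak4, Eif3m, Eif4e2, Eif4e3 and Eif5b are described further after their values were seen. Eif1, Eif2s1, Eif3g, Eif3j and Eif4g1 were not analysed here.

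Same-numbered TG and WT arrays deviated together with correlations of 0.30, -0.01, -0.33 and 0.20, so replicate numbers were not taken as pairs. Alternatives covered the filter, scaling, model, probe set rule, threshold and arrays left out. Start regions came from RefSeq, build GRCm38.p6.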

Additional observations from a re-analysis of the deposited data

Results flagged for a closer look

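Within a group of 4 arrays, an array was singled out when its gap to the nearest other array exceeded the share of the group's range that Dixon's 95% critical value allows. This flags about 1 in 20 groups by chance, and 94 groups (47 genes in TG and in WT) were examined. Of 16 such values, 11 were those of TG replicate 2. The gap was 0.951 of the range for Eif2s2 (at 9.73), 0.954 for Eif2s3x (9.31), 0.965 for Eif2s3y (5.46) and 0.952 for the median of the eIF2 subunits (-2.46 from the WT mean). It was 0.927 for Eif2b2 (10.59), 0.967 for Eif2b5 (10.56), 0.860 for Eif2d (10.51) and 0.860 for Eif3f (13.02), which stood above the other TG arrays. It was 0.912 for Eif3a (10.08), 0.970 for Eif4e3 (9.88), 0.897 for Eif1a (6.26) and 0.852 for Eif1ax (10.40), which stood below them. TG replicate 2 is also the array furthest from the others over all genes, where 77.8% of genes lay outside the other 7 arrays.

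Of the other 5 values, those of Eif5a2, below the filter level throughout, were gaps of 0.868 in TG replicate 4 (3.39) and of 0.926 in WT replicate 1 (3.09). Eif2ak4 had one of 0.898 in WT replicate 1 (5.25), Eif3i of 0.855 in WT replicate 2 (11.60) and Eif5 of 0.851 in WT replicate 3 (12.38). In the last 3 the group spanned less than 0.5 in all.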

How the results depend on the processing

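Under 22 alternatives, 0 initiation factor genes passed, and over the 20 of them that refit the model at the same threshold the adjusted p of a member lay between 0.216 (Eif2b1, array weights) and 1.00. Over all genes, 0 passed in each alternative except limma's array weights, where 1 did (Inmt). At an unadjusted p under 0.05, 7 members were counted with array weights (Eif2b1, Eif1a, Eif2ak3, Eif2d, Eif2ak4, Eif3m and Eif2b3; 15.9% of all genes), 1 without a filter (Eif2b3; 2.0%) and 1 with the unequal-variance test (Eif2b3; 1.5%), and between 0 and 1 with an array left out, namely Eif2b4 without TG replicate 1 (2.94% of all genes), Eif2ak3 without TG replicate 2 (2.42%) and Eif2b1 without WT replicate 1 (1.48%). With an array left out, the medians lay between 0.027 and 0.15 for all members, -0.81 and 0.059 for eIF2, 0.21 and 0.42 for eIF2B, -0.16 and -0.049 for the kinases, 0.034 and 0.25 for eIF3, -0.092 and 0.043 for the eIF4 factors, -0.00969 and 0.34 for the binding proteins, -0.023 and 0.048 for the eIF1, eIF5 and eIF6 genes, and 0.026 and 0.12 for all genes; without TG replicate 2 they were 0.027, 0.059, 0.21, -0.16, 0.034, 0.027, 0.017, 0.014 and 0.026. The eIF1, eIF5 and eIF6 median was 0.070 without a filter, -0.033 with array weights, -0.044 with the mean of probe sets and -0.10 without shared-probe sets. The kinase median was -0.23 with a filter at 7. The eIF4 median was -0.039 with the mean of probe sets, 0.00920 without shared-probe sets and 0.015 without TG replicates 2 and 3. With the replicate block, although the numbers do not pair the mice, 0 genes and 0 members passed, and the median of all members was 0.085.

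The sign of 27 of 45 differences turned under some alternative, 17 with array weights, 16 without TG replicates 2 and 3, 3 with the mean of probe sets, 2 with quantile normalization and 1 with median centring; beyond the arrays left out, the cause was not tested. With array weights the values were Eif1ad -0.00692, Eif1ax 0.020, Eif2b2 -0.014, Eif2s2 0.037, Eif2s3x 0.033, Eif2s3y 0.012, Eif3a 0.012, Eif3b -0.011, Eif3i -0.10, Eif4a1 -0.10, Eif4a2 0.10, Eif4e2 -0.065, Eif4e3 0.20, Eif4ebp1 -0.072, Eif4g2 0.024, Eif4h -0.077 and Eif6 -0.059. Without TG replicates 2 and 3 they were Eif1ad -0.098, Eif1ax 0.064, Eif2a 0.063, Eif2s2 0.078, Eif2s3y 0.11, Eif3e 0.11, Eif3i -0.018, Eif4a2 0.015, Eif4e -0.025, Eif4e3 0.18, Eif4enif1 0.031, Eif4g2 0.00701, Eif4h -0.033, Eif5 0.00332, Eif5b 0.11 and Eif6 -0.080. With the mean of probe sets they were Eif4e -0.28, Eif4e2 -0.016 and Eif4ebp1 -0.023, with quantile normalization Eif2ak4 0.078 and Eif3h -0.018, and with median centring Eif3h -0.00128. Leaving out 1 array turned 22 signs, 19 of them without TG replicate 2, with lowest and highest values of Eif1ad -0.034 to 0.25, Eif1ax -0.17 to 0.074, Eif2ak4 -0.088 to 0.10, Eif2b2 -0.00845 to 0.45, Eif2s2 -0.81 to 0.059, Eif2s3y -1.31 to 0.14, Eif3b -0.057 to 0.25, Eif3e -0.41 to 0.056, Eif3h -0.11 to 0.16, Eif3l -0.025 to 0.33, Eif4a1 -0.013 to 0.21, Eif4a2 -0.19 to 0.15, Eif4b -0.032 to 0.20, Eif4e -0.10 to 0.27, Eif4e2 -0.12 to 0.34, Eif4e3 -0.24 to 0.18, Eif4ebp1 -0.18 to 0.34, Eif4enif1 -0.085 to 0.066, Eif4g2 -0.19 to 0.093, Eif4h -0.00810 to 0.11, Eif5b -0.84 to 0.067 and Eif6 -0.20 to 0.42.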
